A study of Arabidopsis thaliana and Zea mays subsp. mays with 14 samples.

Results

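Regions of open chromatin that lay in Arabidopsis thaliana pseudogenes and transposon genes were examined across 10 ATAC-seq libraries. Called regions that touched or overlapped were joined across the 10 libraries, which gave 29359 merged regions. A merged region was a member when its midpoint lay in a gene annotated as a pseudogene and in no protein-coding gene, which held for 328 of them (1.12%). Of 347 regions with a midpoint in such a gene, 19 also lay in a protein-coding gene and were left out. The annotation used here, RefSeq's TAIR10.1, has no separate entry type for transposon genes. Transposon genes with a symbol, such as the Sadhu and MUSTANG elements, stood under the type pseudogene, while most relics of named protein-coding genes stood under the type transcribed pseudogene.

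Pseudogenes are copies of genes that have lost the capacity to make a working protein, and transposon genes encode, or once encoded, the proteins by which mobile DNA copies or moves itself. In Arabidopsis transposon genes are concentrated in the heterochromatin around the centromeres. There DNA methylation and methylation of histone H3 at lysine 9 keep most of them silent and the chromatin closed. ATAC-seq marks open chromatin through the transposase Tn5, which inserts sequencing adapters where DNA is accessible. A called region inside a pseudogene or transposon gene is therefore read here as a stretch that was accessible in the sampled nuclei. In repeated sequence a call also depends on how reads that match several places were treated, which is not known here.

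All libraries came from plants of the accession Col-0 aged 7 days, on vertical plates with sugar under 16 hours of light and 8 hours of dark. There were 5 groups of 2 libraries: 50000 sorted nuclei from wild-type whole seedlings, 500 sorted nuclei from wild-type whole seedlings, 50000 nuclei from wild-type whole seedlings labelled as crude, 50000 nuclei from whole seedlings of a 35S:H2AX-GFP transgenic line, and 50000 nuclei from wild-type roots. The protocol text names sorting for all samples, the crude ones included. Whole seedlings include their roots. The 35S promoter is active in most plant tissues, and the transgene makes histone H2AX fused to green fluorescent protein. The labels do not state how many plant lines or cultures a group came from, so p-values cover the spread between the libraries at hand, and that spread may be technical alone. A list held between 22138 and 29309 regions that covered between 13.8 and 24.6 Mb. With no read counts in them, the sequencing depth is unknown.

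Tissue labels were checked on marker genes by the bases covered around both gene ends. RBCS1B, which encodes a small subunit of Rubisco, had 1405 to 1829 covered bases in the 8 seedling libraries and 0 in both root libraries. All 5 shoot markers had between 0 and 302 covered bases in roots. BHLH38, a regulator of iron uptake in roots, had 0 to 458 covered bases in seedling libraries, and 1200 and 1061 in roots.

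H2AX-GFP replicate 2 stood apart from the other libraries in these genes. It covered 266 of the 328 regions (81.1%), while the other 9 libraries covered between 144 and 185. Over all merged regions it held no such position, with 73.1% covered against 56.2% to 84.1% elsewhere. Several results that rest on it are given with and without it below. The merged densities by annotated type and chromosome, the positions within genes and the pericentromeric shares are given with all 10 libraries only.

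Open regions were scarce in pseudogenes and transposon genes in every library. These genes span 10.3 Mb outside protein-coding genes, or 8.68% of the 5 nuclear chromosomes. The share of a library's regions with a midpoint there was 0.666% and 0.734% in the sorted seedling libraries, 0.621% and 0.768% in the 500-nuclei libraries, and 0.616% to 0.911% in the crude libraries. It was 0.747% and 1.13% in the H2AX-GFP libraries, and 0.686% and 0.800% in the root libraries. Divided by the share of the genome these spans occupy, the ratio lay between 0.0710 and 0.130, and H2AX-GFP replicate 2 had the highest. Counted by covered bases, H2AX-GFP replicate 2 covered 3.72% of the spans, and the other 9 libraries 1.24% to 1.92%.

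Most loci had no open region. Of 4843 nuclear pseudogenes, 281 (5.80%) held at least 1 member, 37 held several, and 84.9% had no covered base in any library. At least 1 covered base in some library was found for 9.50% of loci of the type pseudogene, 38.6% of transcribed pseudogenes and 79.4% of protein-coding genes. A covered base in all 10 libraries was found for 2.50%, 11.0% and 44.0% of these loci respectively. The median locus was 2043 bp long in the type pseudogene and 782 bp among transcribed pseudogenes, and the part of length in these shares was not tested.

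The 2 annotated types differed in density. The type pseudogene held 183 members over 9.34 Mb, or 19.6 per Mb, and transcribed pseudogenes held 146 over 1.05 Mb, or 139 per Mb, with 1 region in both. Transcribed pseudogenes also lie closer to protein-coding genes: 31.7% of their span against 4.46% of that of the other type is within 1000 bp of one. Within 1000 bp of a protein-coding gene the densities were 177 and 74.4 per Mb for transcribed and other pseudogenes, and farther away they were 121 and 17.0 per Mb. The density was thus higher for transcribed pseudogenes in each zone. The farther zone is wide, however, and position also differed otherwise. The pericentromeric windows defined below held 69.4% of the span of the type pseudogene and 36.1% of that of transcribed pseudogenes. The part of position in the difference was not tested further. In single libraries the type pseudogene held 82 to 115 regions outside H2AX-GFP replicate 2, which had 160. For transcribed pseudogenes the range was 75 to 112, and that library had 121.

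The density of members fell off with distance from protein-coding genes. In spans up to 500 bp from such a gene there were 209 members per Mb, between 501 and 1000 bp 73.2, between 1001 and 2000 bp 47.2, and between 2001 and 5000 bp 37.8. Between 5001 and 10000 bp there were 26.3 per Mb, and beyond that distance 9.17. The 90 members within 1000 bp of a protein-coding gene made up 27.4% of members, while 7.25% of the span lies there. In each library on its own, density within 1000 bp was higher than farther away, by a factor of 4.25 in H2AX-GFP replicate 2 and of 6.07 to 8.36 in the other 9. The decline was present without H2AX-GFP replicate 2, from 198 to 5.60 per Mb between the nearest and the farthest class. It was also present among regions covered in every library, from 69.8 to 2.04 per Mb.

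**Figure D1:**
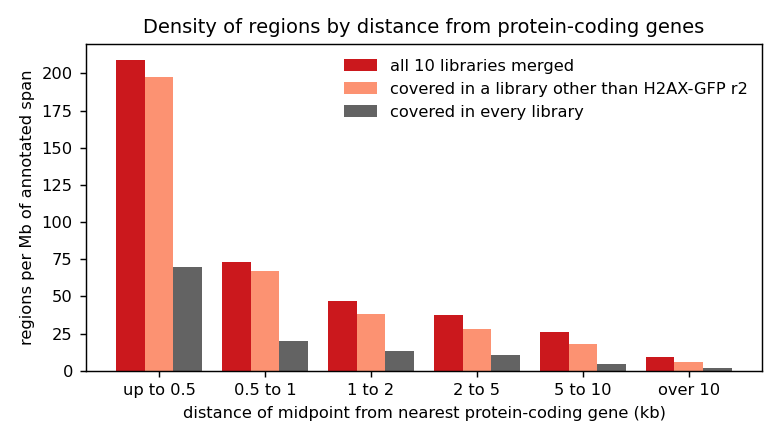
Regions in pseudogenes and transposon genes per Mb of their annotated span, by distance of the midpoint from the nearest protein-coding gene in kb, for all 328 regions, for the 255 covered in a library other than H2AX-GFP replicate 2, and for the 88 covered in every library. All 3 sets of bars decline from the nearest class to the farthest.

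Members also lay near the ends of their own genes more often than the span at large. Midpoints lay within 500 bp of an end of their own gene in 211 members (64.3%), while 39.8% of the span lies so close to an end. Short loci lie wholly within 500 bp of an end. Transcribed pseudogenes, with a median length of 782 bp, held 146 members on 1.05 of the 10.3 Mb of span. The part of locus length in this difference was not tested. The merged region lay wholly inside its gene in 135 cases (41.2%), enclosed the gene in 63, and reached into a protein-coding gene in 66 (20.1%). The median distance from midpoint to the nearest protein-coding gene was 2422 bp, with quartiles of 815 and 5281 bp, and 36 members lay over 10 kb from one. Of the members, 0 had as nearest protein-coding gene any of 36 photosynthesis genes or 20 genes of DNA methylation and small-RNA silencing. These lists are small beside the 27444 protein-coding genes, so counts of 0 say little.

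By chromosome, members were densest on chromosomes 1, 2 and 3, with 39.3, 40.2 and 33.6 per Mb of span, and sparser on chromosomes 4 and 5, with 22.6 and 21.4. Windows of 1 Mb in which pseudogenes span more bases than protein-coding genes were taken as pericentromeric, which held for 19 of 121 windows. These windows hold 66.0% of the spans and 125 of the members (38.1%), or 18.3 members per Mb against 57.6 in the chromosome arms. Of all merged regions, 5.38% lay in these windows. Since the windows were defined by pseudogene span, a larger share of members than of all regions there follows from the definition. The windows held a smaller share of the members than of the spans themselves. Of the 125 members there, 47 were covered in H2AX-GFP replicate 2 alone, so these values rest in part on that library.

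Regions in pseudogenes and transposon genes recurred across fewer libraries than open regions at large. Of the 328, 88 (26.8%) were covered in all 10 libraries, against a background of 42.2% of all merged regions. Another 107 (32.6%) were covered in 1 library, against a background of 14.3%, and 133 were covered in 2 to 9. For other regions outside protein-coding genes the shares were 42.5% in all 10 and 12.4% in 1. Of the 107 regions seen in 1 library, 73 were seen in H2AX-GFP replicate 2, and 47 of those were pericentromeric. Without that library the lists merged to 279 members, 30.8% of which were covered in all 9, against 43.3% of all regions. Among the better-scoring 50% of each library's regions the difference was not present, with 34.5% of members and 34.7% of all regions in all 10 libraries.

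**Figure D2:**
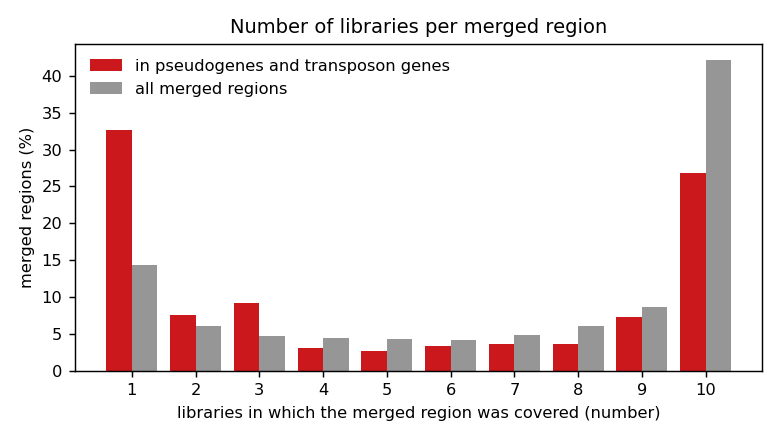
Share of merged regions in %, by the number of libraries in which at least 1 base was covered, for the 328 regions in pseudogenes and transposon genes and for all 29359 merged regions. The first set is highest at 1 library (32.6%) and the second at 10 libraries (42.2%).

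Regions seen in all 10 libraries had higher scores than those seen in 1, both here and at large. A merged region is the union of its calls, so one seen in more libraries is wider by construction. The merged width had a median of 2280 bp for members in all 10 libraries and 317 bp for those in 1, while for all regions these medians were 1388 and 275 bp. The score, the authors' own value for a region, was ranked within each library, and a merged region took the best rank among its calls there. The median percentile was 82.8 for members in all 10 libraries and 13.2 for those in 1, against 71.3 and 8.66 for all regions. Members and all regions thus showed the same order of score by recurrence. A wider merged region can hold more calls, and the part of width in this order was not tested.

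Within libraries, no difference in width or score rank from other regions passed the test when all called regions were used. The median width in pseudogenes and transposon genes minus that elsewhere averaged 26.7 bp ± 67.7 (SD, n = 10 libraries), with 6 of 10 differences above 0 (exact permutation test over signs, two-sided, p = 0.244, adjusted over 3 tests p = 0.732). Among the better-scoring 50% of regions the same difference averaged 150 bp, was above 0 in 9 of 10 libraries and passed the exact permutation test (p = 0.00391). With the same number of best-scoring regions taken from each library it averaged 75.7 bp (exact permutation p = 0.00195, the smallest that 10 libraries can give). The median score percentile differed by -0.346 ± 6.58 (SD, n = 10 libraries; exact permutation p = 0.865, adjusted p = 0.865), with 4 of 10 differences above 0.

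H2AX-GFP replicate 2 covered more members and more bases of them. Over all 328 members, uncovered ones counted as 0, its mean was 1130 covered bases per member, and in the other 9 libraries it was 415 to 607. Over the members it covered, the mean was 1393 bases, against 872 to 1265 elsewhere, and over all regions it covered 1116, against 774 to 1072. The median width of its single called regions in these genes, 721 bp, lay within the range of the other libraries, 407 to 752 bp. The mean over all members relative to that over all merged regions of the same library was 1.38, against 0.704 to 0.990 elsewhere. It was the library with the widest coverage at 191 members (58.2%), but at 22.2% of all merged regions. In pericentromeric windows it was widest at 78.4% of members and at 78.0% of the 1454 other regions there, so the members' share within these windows was close to that of their surroundings. In the arms it was widest at 45.8% of members and at 18.8% of other regions.

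The replicates of the H2AX-GFP group shared a smaller part of their members than those of other groups, though not a smaller number. Replicate 1 covered 185 members and replicate 2 covered 266, and 163 were covered in both, which is 56.6% of those covered in either. For all merged regions this share was 73.2% in the same group. In the other 4 groups 122 to 139 members were shared, which is 62.9% to 78.5%. In pericentromeric windows H2AX-GFP replicate 1 covered 54 members and replicate 2 covered 112, and the other 8 libraries covered between 43 and 54. Over all members the 8 wild-type libraries covered 144 to 169, so replicate 1 of the transgenic line lay above them there and at the upper end of their range in pericentromeric windows. It also covered the largest share of all merged regions of any library, 84.1%, and its share of members relative to that, 0.670, lay within the wild-type range of 0.640 to 0.792. How the nuclei, the region calling or the depth of that 1 library differed was not tested.

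**Figure D3:**
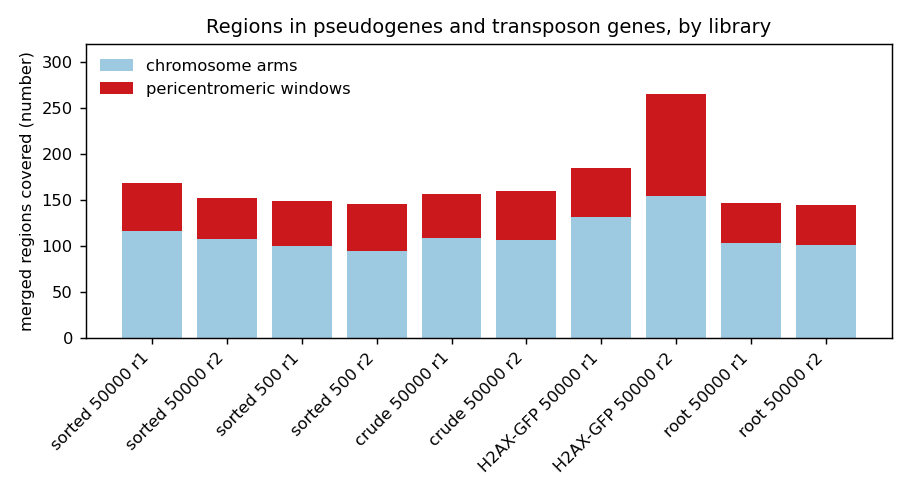
Number of the 328 merged regions in pseudogenes and transposon genes covered in each library, stacked by chromosome arms and pericentromeric windows; r1 and r2 are the replicates and the numbers are nuclei. H2AX-GFP r2 covered 266, of which 112 were pericentromeric, and the other libraries covered 144 to 185.

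Among members covered in all 10 libraries, those with the largest mean of covered bases were domains of several kilobases. The widest in this sense was at AT3G60935 (chr3:22512933-22522899, TAIR10), an open domain of 9967 bp around a pseudogene of 3126 bp. It had 9853 and 9521 covered bases in the sorted seedling libraries, 9776 and 9453 with 500 nuclei, and 8936 and 9422 in crude nuclei. It had 9929 and 9727 in H2AX-GFP and 9742 and 9299 in root libraries, so every library covered nearly the whole domain. Its score was among the library's 100 best in 9 of 10 libraries.

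AT3G33004 (chr3:13536303-13541635), a transcribed pseudogene in a pericentromeric window, showed the same evenness, with 4991 to 5324 covered bases of 5333. Its nearest protein-coding gene lay 8871 bp from the midpoint, and the domain held no protein-coding base. AT2G10735 (chr2:4222280-4226999), also a pericentromeric transcribed pseudogene, had 3487 to 4632 covered bases of 4720. In H2AX-GFP replicate 2 the first had 5294 covered bases and the second 4632, within the range of the other libraries and above it respectively.

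In other wide domains H2AX-GFP replicate 2 accounted for much of the merged width. AT1G43886 (chr1:16637185-16650077) had 12859 covered bases in that library and 2153 to 4500 in the other 9. AT3G29786 (chr3:11646972-11657839) had 10868 covered bases there and 2289 to 5947 elsewhere. Both lay in pericentromeric windows. AT4G08220 (chr4:5183287-5190040) had 6730 covered bases there and 2544 to 4563 elsewhere.

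The rest of the 10 widest were AT1G35513 with 3638 to 6626 covered bases, AT2G24160 with 2713 to 7834, AT2G16080 with 1320 to 7866 and AT1G63835 with 2053 to 4095. Protein-coding bases made up much of the domain in several of these, with 6273 of 7870 at AT2G16080, 4630 of 6754 at AT4G08220 and 3978 of 6883 at AT1G35513. The first of these lay 413 bp from ARI2, a gene of the Ariadne family of ubiquitin ligases. A midpoint in a pseudogene therefore did not mean that most of the domain was pseudogene.

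Over the 88 members covered in every library, the covered length in H2AX-GFP replicate 2 was at the median 1.37 times that of the other libraries, against 1.05 times over all regions covered in every library. For H2AX-GFP replicate 1 these ratios were 1.14 and 1.19. In the plot of covered shares, H2AX-GFP replicate 2 is the brightest column in the lower rows of each block. The merged width includes that library's own calls, so the plot adds no separate support for its ratio.

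**Figure D4:**
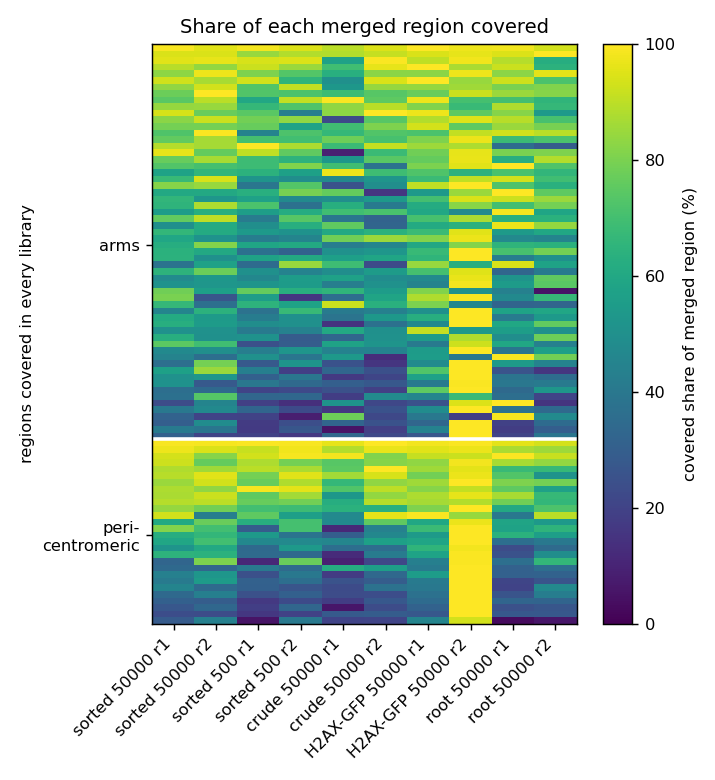
Covered share in % of each of the 88 merged regions in pseudogenes and transposon genes that were covered in every library (rows, arms above the white line and pericentromeric windows below, each ordered by mean share), by library (columns). H2AX-GFP r2 is the brightest column in the lower rows of each block; over all 125 pericentromeric regions it had the widest coverage at 78.4%.

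A few members carried high scores. In each library, between 4 and 10 members held a call among its 100 best-scoring regions. Such a call need not have its own midpoint in these genes. The count is therefore not comparable with the 0.616% to 1.13% of a library's regions that had a midpoint there. Of the 328 members, which were 1.12% of merged regions, 14 held such a call in some library and none did in all 10. Of all 29359 merged regions, 284 did so in some library and 14 in all 10. AT2G07080 (chr2:2938039-2938949), a pericentromeric locus, was in the top 100 of 9 libraries with 779 to 892 covered bases. AT3G06433 was likewise in 9, AT3G33004 and AT4G08220 in 8, and AT4G08340 in 5; AT2G07080, AT3G06433 and AT4G08340 were singled out after their values were seen.

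The members farthest from protein-coding genes, among those covered in at least 8 libraries, lay mostly in pericentromeric windows. At AT5G31909 (chr5:11765621-11766098) the nearest protein-coding gene lay 129222 bp away. The region had 421 and 409 covered bases in sorted seedlings, 429 and 417 with 500 nuclei, 358 and 478 in crude nuclei, 410 and 459 in H2AX-GFP and 324 and 321 in roots. Its lowest value was thus in a root library, and all 10 lay between 321 and 478. AT2G12020 (chr2:4843852-4844332), 36651 bp from a protein-coding gene, was as even, with 276 to 474 covered bases. Both were narrow, with merged widths of 478 and 481 bp, and their median score percentiles over libraries were 95.4 and 95.5.

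The other distal members varied more. AT4G08110 (chr4:5084074-5088194), 49539 bp away and outside the pericentromeric windows as defined here, had 4121 covered bases in H2AX-GFP replicate 2 and 215 to 1832 elsewhere. AT2G09800 (chr2:3668689-3673089), 18654 bp away, ranged from 506 bases in crude replicate 1 to 4401 in H2AX-GFP replicate 2. AT3G30122 (chr3:11760355-11761353), 14284 bp away, had 0 in crude replicate 1 and 999 in H2AX-GFP replicate 2. In all 3 the highest value was that of H2AX-GFP replicate 2 and the lowest that of crude replicate 1.

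The Sadhu elements, short non-autonomous retroposons of Arabidopsis, are the largest named transposon family in the annotation. Of 16 Sadhu loci, 5 held a member, 12 had a covered base in some library and 6 in all 10. SADHU1-1 (chr2:4005995-4007044) was covered over its whole 1050 bp in all 10 libraries, inside an open domain of 2168 bp. The domain itself had 1448 covered bases in crude replicate 1, the lowest, and 2168 in H2AX-GFP replicate 2, the highest.

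SADHU1-3 (chr5:10632241-10633944) had 1018 to 1461 of 1704 bases covered. SADHU1-2 (chr1:10966907-10968878) was more variable, with 1304 and 1681 covered bases of 1972 in sorted seedlings, 972 and 332 with 500 nuclei, 822 and 484 in crude nuclei, 1710 and 1972 in H2AX-GFP and 487 and 347 in roots. The root values lay at the low end of the range but within it. SADHU2-1 (chr1:12840228-12841118) had 582 to 891 of 891 bases covered and shared its open region with the overlapping AT1G35110. SADHU1-1, SADHU1-2 and SADHU1-3 were thus all open in every library.

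SADHU6-1 (chr3:525370-526255) was covered in 3 libraries, with 211 and 261 bases in the 500-nuclei libraries and 345 in crude replicate 1. Sadhu4-2 and SADHU7-1 held no member but had 164 to 356 and 182 to 629 covered bases in all 10 libraries. SADHU9-1, SADHU7-2, SADHU3-1 and SADHU5-1 had no covered base.

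The MUSTANG genes (MUG) derive from transposases of Mutator-like elements that plants have put to other use. Of 6 MUG loci under the pseudogene type, 2 held members. MUG8 (chr5:13103678-13107090) was covered in H2AX-GFP replicate 2 only, with 1359 of 3413 bases, and MUG6 held a member of 132 bp seen in crude replicate 1. MUG1 and MUG4 held no member but had 52 to 197 and 114 to 383 covered bases in all 10 libraries. CYTOSLEEPER, a domesticated hAT-like transposase gene, had 155 to 333 covered bases in all 10 libraries and no member. RE2, a copia-like retrotransposon, had no covered base.

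Among relics of protein-coding genes with a symbol, 8 of the 40 transcribed pseudogenes held members. DRP4D (chr1:22296663-22297650 for the region), a relic of a dynamin-related protein gene, was covered in all 10 libraries with 283 to 869 bases, and the region at DRP4B was covered in 3. GA2OX5, a relic of a gibberellin-inactivating oxidase gene, held a member covered in all 10 with 660 to 1476 bases and a second one of 102 bp seen in H2AX-GFP replicate 1.

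AOP2, which in other Arabidopsis accessions encodes an enzyme of glucosinolate side chains, was covered in 7 libraries with 127 to 583 bases. CYP705A14P, a cytochrome P450 relic, was covered in 8 libraries. RLP49, a receptor-like protein relic, held 3 members covered in 6, 1 and 2 libraries. ATPUP20, of the purine permease family, was covered in 2 libraries, and LCR71, of a family of cysteine-rich peptides, in H2AX-GFP replicate 2 alone. DRP4D and GA2OX5 were the only ones of these relics with a member covered in every library.

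The locus with the most members was AT2G24750, a transcribed pseudogene of 6985 bp. Its 6 members lay wholly inside it, between chr2:10539629 and 10545663, and were covered in 5, 3, 1, 2, 4 and 6 libraries. None was covered in root replicate 2. The widest of them had 684 and 952 covered bases in sorted seedlings, 0 and 883 with 500 nuclei, 284 and 0 in crude nuclei, 601 and 2070 in H2AX-GFP and 0 in both root libraries.

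No difference between roots and seedlings was found in the share of regions in these genes. The ratio of the share of regions to the share of the genome was 0.0790 and 0.0921 in roots and 0.0710 to 0.130 in the seedling libraries. The root mean minus the seedling mean was -0.00365 (0.0855 against 0.0892; exact permutation test over libraries, two-sided, p = 0.822, adjusted p = 0.865). The smallest p that 2 libraries against 8 allow is 0.0222. Without H2AX-GFP replicate 2 the difference was 0.00222 (exact permutation p = 0.861).

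Covered bases of each merged region were compared between groups with limma over all 25147 regions covered in at least 2 libraries, of which 221 were members. The other 107 members, seen in 1 library each, were not tested. Since the sorted seedling libraries serve in several comparisons, these are not independent. For roots against sorted seedlings, limma called 0 members at an adjusted p under 0.05, against a background of 0.541% of all regions, 0.159% higher and 0.382% lower in roots. That background was itself 0% when root replicate 1, either sorted seedling library or either 500-nuclei library was left out, or when only these 2 groups were fitted, and 0.116% without root replicate 2. At an unadjusted p under 0.05 there were 25 members (11.3%), against 11.9% of all regions. The median difference in unscaled bases was -32 for members and -70 for all regions, but it was 23.3 for both after quantile normalization and 0 for both after division by covered length. Over all regions 40 were called higher and 96 lower, against 226 and 118 after quantile normalization and 64 and 28 after division by covered length.

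For roots against the mean of the 4 seedling groups, 7 of the 221 tested members were called (3.17%), against a background of 2.82%. Of these 3 were higher in roots and 4 lower, against backgrounds of 1.26% and 1.55%. The median difference was -90.1 bases for members and -36.9 for all regions, and 32.6% of members and 42.9% of all regions were higher in roots. After quantile normalization or division by covered length, 7 members were again called, 3 higher and 4 lower, but 5.93% and 4.86% of all regions were. Of those, 912 were higher and 580 lower after quantile normalization, and 710 and 511 after division by covered length, against 317 and 391 unscaled. With equally many regions from each library, 7 of 193 tested members (3.63%) were called, against 5.08% of all regions. The share of members called thus lay slightly above the background without scaling and below it under these alternatives. In bulk nuclei, fewer nuclei of a cell type and less accessibility per nucleus cannot be told apart. The number called ranged from 0 to 15 as single libraries were left out. It was 0 without root replicate 1, when 0% of all regions were called, and 0 without 500-nuclei replicate 1 or 2, when 0.566% and 0.534% of all regions were. It was 1 (0.461% of tested members) without root replicate 2 and 1 (0.455%) without sorted seedling replicate 2, against 0.706% and 1.13% of all regions. It was 3 (1.38%) without crude replicate 2 and 3 (1.38%) without sorted seedling replicate 1, against 1.98% and 1.90%. Without H2AX-GFP replicate 1, which left replicate 2 as the only library of its group, it was 15 (6.88%), against 3.75% of all regions. Each of the 7 calls was lost in at least 1 of these fits, and none changed direction.

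The region at AT5G49746 (chr5:20208520-20210643) was lower in roots. It had 1042 and 1180 covered bases in sorted seedlings, 553 and 936 with 500 nuclei, 1359 and 1450 in crude nuclei, 1516 and 1682 in H2AX-GFP, and 0 and 345 in roots. Both root values lay below all seedling values, with a difference of -1042 bases (SE 160, limma adjusted p = 0.0212). Its midpoint lay 805 bp from FRO7, which encodes a ferric reductase of chloroplasts, and 258 of its 2124 bases lay in protein-coding genes.

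The region at AT3G17050 (chr3:5813981-5815535) had 782 and 1117 covered bases in sorted seedlings, 641 and 574 with 500 nuclei, 483 and 802 in crude nuclei and 872 and 1420 in H2AX-GFP. It had 0 in both root libraries, a difference of -836 bases (SE 168, limma adjusted p = 0.0465). The region at AT3G22136 (chr3:7801487-7802197) had 364 to 671 covered bases in seedling libraries, and 0 and 101 in roots (difference -497, SE 80.7, limma adjusted p = 0.0236). In both, the root and seedling values did not overlap. These and the other called regions were chosen by limma on the same values, so such separation adds no support to the calls. The share of all regions separated in this way was not counted.

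The region at AT5G24065 (chr5:8133164-8134177) was open in all libraries and narrower in roots. It had 902 and 877 covered bases in sorted seedlings, 1014 and 889 with 500 nuclei, 690 and 923 in crude nuclei, 864 and 891 in H2AX-GFP, and 359 and 297 in roots. The difference was -553 bases (SE 107, limma adjusted p = 0.0403). With a block for the replicate number the limma adjusted p was 0.0522, with the better-scoring 50% of regions it was 0.307, and over all alternatives it ranged from 0.0217 to 0.307. The lowest seedling value, 690, was well above the higher root value.

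Among the regions higher in roots, AT2G21020 (chr2:9023587-9024681) had 237 covered bases in sorted seedling replicate 1, 0 in the other 7 seedling libraries, and 652 and 1095 in roots (difference 844, SE 122, limma adjusted p = 0.0192). The region of AT5G14840 at chr5:4797724-4798969 had 344 covered bases in crude replicate 1, 0 in the other 7 seedling libraries, and 1246 and 605 in roots (difference 882, SE 163, limma adjusted p = 0.0357). Another member in the same gene (chr5:4799244-4801070) was covered in all 10 libraries, with 418 to 1545 bases in seedlings and 1713 and 1053 in roots.

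The region at AT1G19030 (chr1:6571225-6571633) was small, with 72 covered bases in 500-nuclei replicate 1, 71 in H2AX-GFP replicate 1, 0 in the other 6 seedling libraries, and 372 and 291 in roots (difference 314, SE 57.7, limma adjusted p = 0.0351). All 3 regions were thus higher in both root libraries than in every seedling library, the values on which they were called. The called regions at AT2G21020 and AT5G14840 were each covered in 1 seedling library. They therefore passed the filter of 2 libraries through roots, where they were higher. A filter of 4 libraries left both untested, and 0 members higher in roots were then called. The next member by adjusted p, AT3G06437, did not pass (difference 579, limma adjusted p = 0.0939).

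Of the 7 calls, 5 were also lost in some alternative that kept all libraries. AT3G17050 had a limma adjusted p of 0.0563 without the filter on libraries and 0.0552 with equally many regions from each library, and 0.0214 to 0.302 over all its alternatives. AT3G22136 had 0.0502 after quantile normalization and 0.222 with the better-scoring 50% of regions, and 0.0164 to 0.237 over all. AT5G49746 had 0.0732 with the better-scoring 50%, and 0.0195 to 0.230 over all. AT1G19030 had 0.0559 with a filter of 4 libraries, and 0.00715 to 0.282 over all. AT2G21020 and AT5G14840 kept their calls in the 6 such alternatives that tested them, and lost them without single libraries, with limma adjusted p up to 0.152 and 0.218.

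Regions open in seedlings or in roots alone were few, among members as among all merged regions. No member was covered in both root libraries and in no seedling library, against a background of 0.545% of all merged regions. In all 8 seedling libraries and in no root library there were 3 members (0.915%), against a background of 1.77%. They were AT3G17050, AT1G47440 and AT3G42806. AT1G47440 (chr1:17400638-17402475) had 231 to 1838 covered bases in seedling libraries and did not pass the test (difference -856, limma adjusted p = 0.106). AT3G42806 (chr3:14916738-14917748), the only one of the 3 in a pericentromeric window, had 58 to 921.

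**Figure D5:**
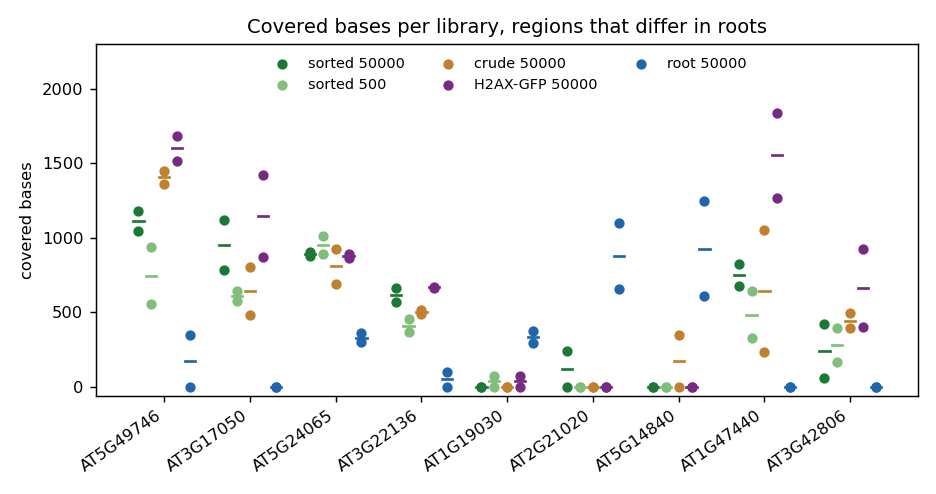
Covered bases in each library (points) and the mean of each group of 2 (bars), for the 7 regions called between roots and the 4 seedling groups and, at the right, the other regions covered in all 8 seedling libraries and in neither root library. Root points lie below all seedling points in the first 4 regions and above them in the next 3, and these 7 regions were called on the same values.

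The number of nuclei, the crude preparation and the transgene gave no called member. For 500 against 50000 sorted nuclei, limma called 0 members, against a background of 0%, and 9 members (4.07%) had an unadjusted p under 0.05, as did 6.16% of all regions. The median difference in unscaled bases was -121.5 for members and -187 for all regions, and coverage was higher with 500 nuclei in 20.4% of members and 4.18% of all regions. This direction depends on the scaling. After quantile normalization the medians were 32.8 and 27.95 bases, with 64.7% of members and 58.0% of all regions higher, and after division by covered length they were 0 and -4.47, with 48.9% and 42.4% higher. For crude against sorted nuclei, limma also called 0 members, against a background of 0%, with 23 members (10.4%) and 8.20% of all regions at an unadjusted p under 0.05 and median differences of -111.5 and -116 unscaled bases. These medians also turned, to 18.15 for both after quantile normalization and to 13.4 and 6.81 after division by covered length.

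H2AX-GFP was compared with the sorted seedling libraries, and not with the other wild-type groups. In this comparison limma called 0 members, against a background of 0%. An unadjusted limma p under 0.05 was found for 19 members (8.60%) and 4.39% of all regions. The median difference was 165.5 bases for members and 32 for all regions, and 76.9% of members and 60.2% of all regions were higher in the transgenic line. After quantile normalization the medians were 78 and -19.2 bases, with 64.3% and 41.6% higher, and after division by covered length they were 68.9 and -23.9, with 63.3% and 41.7% higher. The sign for members was thus kept, with smaller values, and that for all regions turned. In unscaled bases the members' median followed replicate 2. With replicate 1 left out, the median was 303 bases for members and -36.8 for all regions, and limma called 27 members (12.4%), all higher, against a background of 1.93%. With replicate 2 left out, it was 0 bases for members and 88 for all regions, and limma called 0 members. With 1 library in a group, that library was assumed to vary like those of the other groups.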

How the data were processed

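The 10 deposited lists hold coordinates and, for each region, a score that the authors assigned. It served to rank regions within a library. What it measures, the peak caller and the treatment of reads that match several places are not given in the sources used. The last bears on repeated sequence and its effect was not tested. Coordinates are on TAIR10, per the submitters' processing notes. Of 14 samples, the other 4, genomic DNA included, were not analysed here.

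Genes came from RefSeq's TAIR10.1 annotation, joined by position because its nuclear chromosomes carry the TAIR10 sequence, without strand, exons, descriptions or sequence, so classes by description, disease resistance genes, organelle insertions and sequences were not used here. A region was covered in a library if 1 base was. Covered bases were tested in R 4.3.3 with limma 3.58.1 (robust eBayes with a trend, Benjamini-Hochberg over all regions), all libraries in 1 fit; the procedure was tested on simulated data. Ratios, widths and ranks were tested by exact permutation over libraries. Distances run from midpoints. Chromosome lengths were taken as the last annotated or called base.

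Members and lists were chosen with earlier results of these data known. Regions named in the text were the called members, the 10 widest covered in all 10 libraries, those covered in all 8 seedling and no root libraries, the 5 farthest from protein-coding genes among those in at least 8 libraries, up to 5 of each transposon family covered in all 10, the locus with the most members, and the member next to the threshold. AT2G07080, AT3G06433 and AT4G08340 were named for their scores after these were seen. Other named loci with a symbol are given to account for their families. Other steps used scipy 1.17.1, pandas 2.3.3, numpy 2.4.6 and matplotlib 3.10.9 under Python 3.11.15.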

Additional observations from a re-analysis of the deposited data

How the results depend on the processing

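Leaving out 1 library at a time gave 279 to 332 members, 27.1% to 30.8% of them in every remaining library and 26.7% to 31.9% within 1000 bp of a protein-coding gene. The root difference in ratio ranged from -0.0102 to 0.00290, the width difference from 17.2 to 37.1 bp and the score rank difference from -1.53 to 0.703 percentile points, none past the threshold. Members called ranged from 0 to 15 for roots against the 4 seedling groups, with 0 to 914 of all regions, and from 0 to 27 for H2AX-GFP, with 0 to 471. They were 0 throughout for roots against sorted seedlings, 500 nuclei and crude nuclei. With the better-scoring 50% of regions there were 145 members, 34.5% in all 10 libraries, the width difference was 150 bp and 1 of 116 tested members (0.862%) was called for roots against the 4 seedling groups, against 5.28% of all regions. Requiring that 50% of the merged region be covered left 7.93% of members in all 10 libraries (10.3% of all regions). Flanks of 500 and 2000 bp held 16.5% and 43.3% of members, and 2.49% and 17.9% of the span, and 34.4% of members covered in at least 2 libraries lay within 1000 bp. Taking equally many regions from each library, the width difference was 75.7 bp and 2 members (1.04%) were called for roots against sorted seedlings, against 1.46% of all regions. Quantile normalization called 1 (0.452%), against 1.37%. A filter of 4 libraries called 4 (2.41%) for roots against the 4 seedling groups, all lower in roots, against 2.45%, with fewer regions tested. The cause of the other changes was not tested. The replicate numbers were not taken to pair the libraries: of 10 correlations of deviations between groups, from -0.274 to 0.571, 7 were above 0 and 4 above 0.1. With a replicate block, 8 members (3.62%) were called for roots against the 4 seedling groups, against 2.95% of all regions, and AT5G24065 had an adjusted p of 0.0522 in limma. For roots against sorted seedlings the block left 0 of the 136 calls over all regions. For H2AX-GFP, 28 members had an unadjusted limma p under 0.05 with the block and 19 without it, against 1190 and 1104 of all regions. For 500 nuclei these numbers were 13 and 9 members, against 1760 and 1548 of all regions. No direction of a called member changed in any of the alternatives run. Depth is unknown, so which absences follow from shallow sequencing cannot be told.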
